A study of Mus musculus with 4 samples.

Results

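Type 1 innate lymphoid cells were picked out of mouse liver single-cell libraries by a gate on the transcripts of 17 genes, and they made up 322 of 24030 kept cells. A member had at least 1 UMI (unique molecular identifier, 1 captured transcript) over the NK receptor genes Ncr1, Klrb1c and Klrb1b. It also had at least 1 UMI over Cxcr6, Itga1, Kit, Nrgn and Gzmc, called the type 1 genes here. It had 0 UMIs of 9 genes that mark T cells (Cd3d, Cd3e, Cd3g), conventional NK cells (Klra8, Klra4, Eomes, Itgam), B cells (Cd79a) and macrophages (Csf1r). The members were chosen by the UMIs of those 17 genes, so their levels in the members are given as description, with no support drawn from them. The gate found 56 members in Control 1, 98 in Control 2, 79 in KO 1 and 89 in KO 2.

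Type 1 innate lymphoid cells are lymphocytes without a rearranged antigen receptor that live in tissues and secrete interferon gamma and other type 1 cytokines. In the liver they lie beside conventional NK cells, which circulate, depend on the transcription factor EOMES and kill target cells with perforin and granzymes. The resident cells are known for the integrin CD49a (Itga1), the chemokine receptor CXCR6, the death ligand TRAIL (Tnfsf10) and the interleukin 7 receptor, and they share the receptors NKp46 (Ncr1) and NK1.1 (Klrb1c) with NK cells.

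The study measured droplet single-cell RNA of liver cells from 24-week-old male mice of the Cyr61 fl/fl strain that had been fed a NASH diet for 12 weeks, which brings on fatty liver with inflammation. There were 2 libraries with the genotype Control and 2 with the genotype Cyr61 KO, all on the floxed strain. The labels name neither the cells in which the gene was deleted nor the Cre. They also do not say whether each library came from a separate animal, so the tests reflect how far these libraries spread, which may be technical. The tissue had been frozen in serum with DMSO, thawed, digested, and depleted of dead cells. Totals per library ran from 8290677 UMIs (Control 1) to 20537236 UMIs (Control 2). The median member of Control 1, Control 2, KO 1 and KO 2 held 1539, 3281.5, 1944 and 3021 UMIs, and the members' UMIs summed to 108853, 332668, 177735 and 299653 in that order. Levels are CPM, the UMIs of a gene per 1000000 UMIs of the members of a library. The 6 pairs of libraries shared 6 to 22 cell barcodes, of which 0 belonged to members in both libraries.

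Of the genes that name the cells, Xcl1 is the marker that the gate did not use. Xcl1, a chemokine that draws in dendritic cells, was found in 82.3% of members and in 1.84% of 5503 B cells, at median depths of 2457 and 1979 UMIs. After thinning each cell to 1000 UMIs, which left 295 members, these shares were 75.6% and 0.803%. The gate genes had to be present, and their levels show how the gate was filled. Ncr1, the activating receptor NKp46, was at 542 and 523 CPM in Control 1 and 2 and 523 and 581 CPM in KO 1 and 2 and was found in 233 of 322 members (72.4%). Of the type 1 genes, Kit, the stem cell factor receptor, was found in 132 members, Nrgn in 128, Cxcr6 in 110 and Itga1 in 107. Gzmc, a granzyme gene, was found in 24 members. A single type 1 gene carried 188 of the 322 members, 91 had 2 of them and 0 had all 5. The level of Gzmc was 266 CPM in Control 1 and between 33.1 and 39.4 CPM in the other 3 libraries.

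Other cell types were checked by their markers. Trac, the constant segment of the T cell receptor alpha chain, had 2, 4, 2 and 4 UMIs in Control 1, Control 2, KO 1 and KO 2 over all members, and 3.42% of members had a UMI against 1.82% of B cells. The beta chain segments Trbc1 and Trbc2 were present in 61.8% and 49.1% of members, against 2.13% and 3.69% of B cells. Transcripts from the beta locus without a rearranged receptor are known in innate lymphocytes. Rearrangement was not measured here, and the part of T cells in the gate was not tested. Of 20 T cell markers, the 3 CD3 genes were at 0 by the rule, and the list summed to 1387 and 1389 CPM in Control 1 and 2 and 1682 and 2039 CPM in KO 1 and 2. Il5 and Il13, cytokine genes of type 2 innate lymphoid cells, and Il22, one of type 3 cells, had 0 UMIs over all members. Zfp683, encoding HOBIT, a regulator of liver-resident innate cells, had 10 UMIs over all members and 0 in the conventional NK cells, at least 5.92-fold higher against a floor of 3 UMIs over the NK cells. Of the 14 myeloid markers, Csf1r was at 0 by the rule, and C1qb, C1qc, Adgre1 and Fcgr1 were also at 0. The myeloid list summed to 441 and 472 CPM in Control 1 and 2 and 242 and 250 CPM in KO 1 and 2. The gate was loose at its lower edge: 13 and 5 members in Control 1 and 2 and 17 and 7 in KO 1 and 2 had exactly 1 NK receptor UMI and 1 type 1 UMI. Just outside it, 19 and 33 cells in Control 1 and 2 and 30 and 17 in KO 1 and 2 met both positive criteria but carried exactly 1 UMI of an excluded gene.

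The share of type 1 innate lymphoid cells differed between Control and KO by less than the spread between libraries, while the conventional NK gate held more cells in the KO libraries. Members made up 1.19% and 1.38% of kept cells in Control 1 and 2 and 1.10% and 1.76% in KO 1 and 2, so the groups overlapped. The means were 1.28% ± 0.138 (SD, n = 2) and 1.43% ± 0.462 (SD, n = 2). The log2 change was 0.14 ± 0.37 (SE), with adjusted p = 0.708 in edgeR's quasi-likelihood test on cell numbers over 8 classes. The exact two-sided permutation p was 1, where 0.333 is the smallest that 2 against 2 libraries allow. Without KO 2 the change was -0.22, and it was also below 0 among cells with at least 1000 UMIs and among members with at least 2 type 1 UMIs.

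Conventional NK cells were gated with the same NK receptors, at least 1 UMI over Klra8, Klra4, Eomes and Itgam, and no UMI of Cd3d, Cd3e, Cd3g, Cd79a or Csf1r, which gave 586 cells. They made up 1.14% and 1.23% of kept cells in Control 1 and 2 and 3.20% and 4.26% in KO 1 and 2 (log2 1.65 ± 0.36 SE, adjusted p = 0.00253, exact permutation p = 0.333). Without KO 2 that call was lost (log2 1.43, adjusted p = 0.134). Members were 50.9% (95% exact Clopper-Pearson interval 41.2 to 60.6) and 53.0% (45.5 to 60.3) of both gates together in the Control libraries. In the KO libraries they were 25.6% (20.9 to 30.9) and 29.2% (24.1 to 34.6). The intervals cover counting error only. Both KO libraries were below both Control libraries, and the exact two-sided permutation p was 0.333, the smallest possible. An alternative, called Ncr1-only below, used Ncr1 as the only NK receptor and only Eomes and Itgam to mark conventional NK cells. Its gates did not use Klra8 or Klra4. It gave shares of 61.2% and 59.4% for the Control libraries against 33.7% and 35.4% for the KO libraries. Thinning each cell to 1000 UMIs gave 48.3% and 59.1% against 26.2% and 24.0%. Other classes moved too: Csf1r+ cells were a smaller share in KO (log2 -1.18, adjusted p = 0.00938), and B cells (log2 0.85, adjusted p = 0.0405) and CD3 cells with an NK receptor UMI (log2 1.32, adjusted p = 0.00622) a larger one. Without KO 1 and without KO 2 none of these 3 was called (adjusted p = 0.111 and 0.210 for Csf1r+ cells, 0.197 and 0.214 for B cells, 0.0906 and 0.134 for the CD3 cells). The B cell call was also lost in 8 of the other 13 alternatives, with log2 0.46 (adjusted p = 0.230) without Control 1. The CD3 cell value fell to log2 0.48 (adjusted p = 0.414) with Ncr1 as the only NK receptor. Its call was also lost with each cell thinned to 1000 UMIs (log2 0.89, adjusted p = 0.063). The Csf1r+ call was also lost among cells with at least 1000 UMIs (log2 -1.19, adjusted p = 0.0578). Each share is relative to all cells recovered, and the part of these classes in the members' share was not tested.

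**Figure D1:**
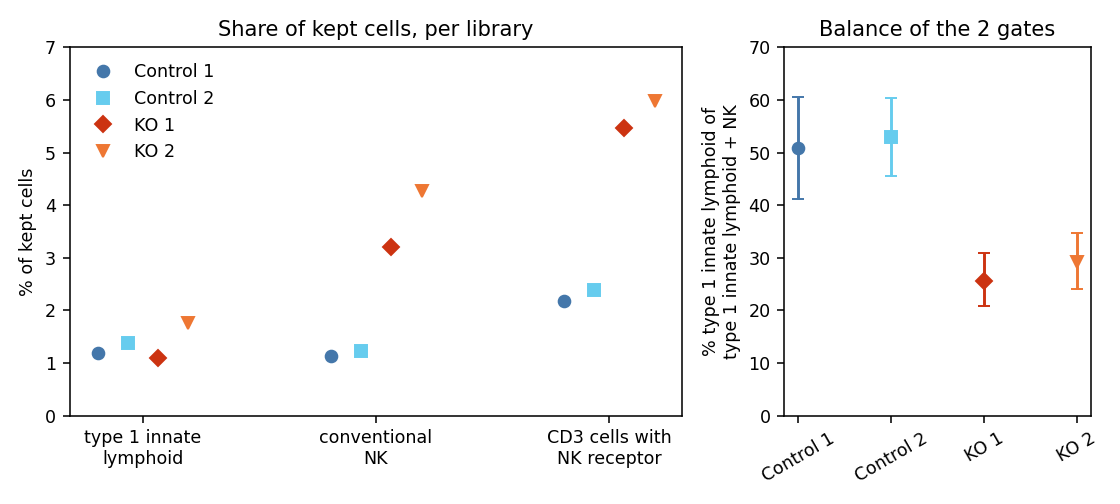
Left, percent of kept cells in each library that fell in the gates for type 1 innate lymphoid cells, conventional NK cells and CD3 cells with an NK receptor UMI, 1 point per library. Right, type 1 innate lymphoid cells as percent of both innate gates, with 95% exact binomial intervals; the Control libraries sit at 50.9% and 53.0% and the KO libraries at 25.6% and 29.2%.

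The members were then set against the conventional NK cells of the same libraries. The gates differ in the genes they require and forbid, so the gate genes were left out, and genes that go along with them differ in part by the choice of cells. Of 5047 genes tested, 382 differed (7.57%), with 188 higher in the members (3.72%) and 194 lower (3.84%). The members had more Il7r, Xcl1, Ltb, Cd7 and Rora, and less of the perforin and granzyme A genes and of the NK-cell regulator Zeb2. Below, means are over the 4 libraries with the SD, members first, and the fold comes from edgeR with the library as a block.

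Il7r, the receptor chain for interleukin 7 (ENSMUSG00000003882, chr15:9505788-9530176, minus strand, GRCm38), was at 266 and 367 CPM in Control 1 and 2 and 366 and 414 CPM in KO 1 and 2 in the members. In the NK cells it was at 28.9 and 30.4 CPM in Control 1 and 2 and 55.7 and 30.2 CPM in KO 1 and 2. The 2 classes did not overlap in any library (log2 3.25 ± 0.22 (SE), adjusted p = 1.86e-09). Xcl1 (ENSMUSG00000026573, chr1:164931644-164935527, minus strand) was at 3215 and 2381 CPM in Control 1 and 2 and 1564 and 2483 CPM in KO 1 and 2 in the members and at 893 to 1339.9 CPM in the NK cells (log2 1.05 ± 0.11 (SE), adjusted p = 1.17e-06). The starts of these 2 genes are shown because Il7r had the smallest p among the higher genes and Xcl1 the highest level of the named ones. The sequences run from 250 bases before to 50 after the start (RefSeq, GRCm38.p6), with capitals for matches, on either strand, to the RUNX letters TGTGGT or the T-box letters GGTGTG. The Il7r window is chr15:9529827-9530126, minus strand, and the Xcl1 window is chr1:164935473-164935772, minus strand. The Il7r window lies within the gene span given above, so its RefSeq start differs from the start in those coordinates.
Il7r: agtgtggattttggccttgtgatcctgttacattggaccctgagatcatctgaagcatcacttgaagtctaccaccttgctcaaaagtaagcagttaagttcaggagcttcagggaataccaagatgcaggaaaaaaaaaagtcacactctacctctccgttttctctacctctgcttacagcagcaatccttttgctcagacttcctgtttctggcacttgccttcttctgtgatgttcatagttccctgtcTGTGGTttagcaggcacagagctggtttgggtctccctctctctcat
Xcl1: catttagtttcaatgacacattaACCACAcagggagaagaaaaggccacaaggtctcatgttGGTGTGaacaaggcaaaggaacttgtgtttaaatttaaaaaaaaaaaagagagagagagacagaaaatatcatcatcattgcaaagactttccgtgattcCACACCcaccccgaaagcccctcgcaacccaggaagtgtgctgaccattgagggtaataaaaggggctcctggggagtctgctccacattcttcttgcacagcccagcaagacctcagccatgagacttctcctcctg
Il7r holds 1 RUNX match and 0 T-box matches, and Xcl1 holds 1 RUNX and 2 T-box matches. Of 32851 windows of this length, 16.8% hold the RUNX letters and 19.0% the T-box letters, so a match is common.

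T cell markers moved with these genes: of 9 tested, Trbc1 (log2 0.79, adjusted p = 0.00169), Trbc2 (log2 1.40, adjusted p = 5.39e-05) and Bcl11b (log2 1.59, adjusted p = 0.0203) were higher in the members and Trdc (log2 -1.47, adjusted p = 0.0196) was lower. The part of T cell transcripts in the genes below was not tested beyond the gate without a Trac, Trbc1 or Trbc2 UMI. In that gate 50 of 823 genes differed, and Ifit1, Maf and H2afz lost their calls. Inpp4b, Rora, Tcrg-C4 and Klra3 had values in only 16 of 17 alternatives, and no result for them in this gate is given.

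Several further genes of resident innate cells were higher in the members. Ltb, lymphotoxin beta, was at 645 ± 155 against 225 ± 98.2 CPM (log2 1.59 ± 0.18 (SE), adjusted p = 2.95e-06). Inpp4b, a phosphoinositide phosphatase, was at 219.6 ± 34.5 against 28.5 ± 26.6 CPM (log2 3.47, adjusted p = 3.64e-08). Cd7, a lymphocyte surface protein, was at 1344 ± 319.6 against 385 ± 143 CPM (log2 1.80, adjusted p = 1.54e-07). The pair of neighbouring membrane protein genes Tmem176a and Tmem176b was 3.38 and 3.61 higher on the log2 scale (adjusted p = 4.46e-07 and 2.74e-06). Among regulators, Rora, a nuclear receptor gene of innate lymphoid cells, was at 138 ± 63.4 against 29.2 ± 9.05 CPM (log2 2.39, adjusted p = 2.21e-06), Ikzf2 (HELIOS) at 257 ± 21.9 against 59.7 ± 20.6 CPM and Maf at 306 ± 93.9 against 95.6 ± 19.3 CPM. The constant segment Tcrg-C4 of the gamma chain locus was at 190.0 ± 31.1 against 9.16 ± 11.4 CPM (log2 4.40, adjusted p = 1.54e-07). Ifit1, an interferon-induced gene, was at 208 ± 87.7 against 30.1 ± 20.4 CPM (log2 2.60, adjusted p = 4.91e-08), but few members carried it: 8 and 6 members in Control 1 and 2 and 13 and 9 members in KO 1 and 2.

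The genes lower in the members included those of circulating, cytotoxic NK cells. Gzma, granzyme A, was at 836 and 36.1 CPM in Control 1 and 2 and 816 and 187 CPM in KO 1 and 2 in the members against 4006 to 7754 CPM in the NK cells (log2 -4.27 ± 0.36 (SE), adjusted p = 3.60e-08). Its UMIs came from 32 of 322 members, and 1 member held all 91 Gzma UMIs of Control 1 and another 95 of the 145 of KO 1. Prf1, perforin, was at 72.9 ± 31.0 against 524 ± 203 CPM (log2 -2.84 ± 0.21 (SE), adjusted p = 6.09e-09). Zeb2, a transcription factor needed for terminal NK cell maturation, was at 34.4 ± 19.3 against 372 ± 216 CPM (log2 -3.49, adjusted p = 3.03e-09). Klf2, which keeps lymphocytes in circulation, was at 391 ± 130.4 against 1136 ± 408 CPM (log2 -1.58, adjusted p = 2.50e-08). Ccl5, a chemokine abundant in both classes, was at 6991 ± 942 against 11597 ± 1319 CPM (log2 -0.78, adjusted p = 2.49e-08). Cma1, a chymase gene, had 2 UMIs in the members and 364 in the NK cells, a ratio per UMI of 102 (95% counting interval 28.1 to 849). Of the inhibitory Ly49 receptor genes, Klra7 was at 13.2 ± 10.1 against 455 ± 82.6 CPM (log2 -4.90, adjusted p = 2.30e-10), and Klra3 and Klra9 were lower too (log2 -4.16 and -4.53). These genes are close copies of Klra8 and Klra4, which the gate forbids, and reads may be split among copies, so their levels are uncertain. Lgals1 and the histone variant gene H2afz were also lower (log2 -1.77 and -1.51).

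**Figure D2:**
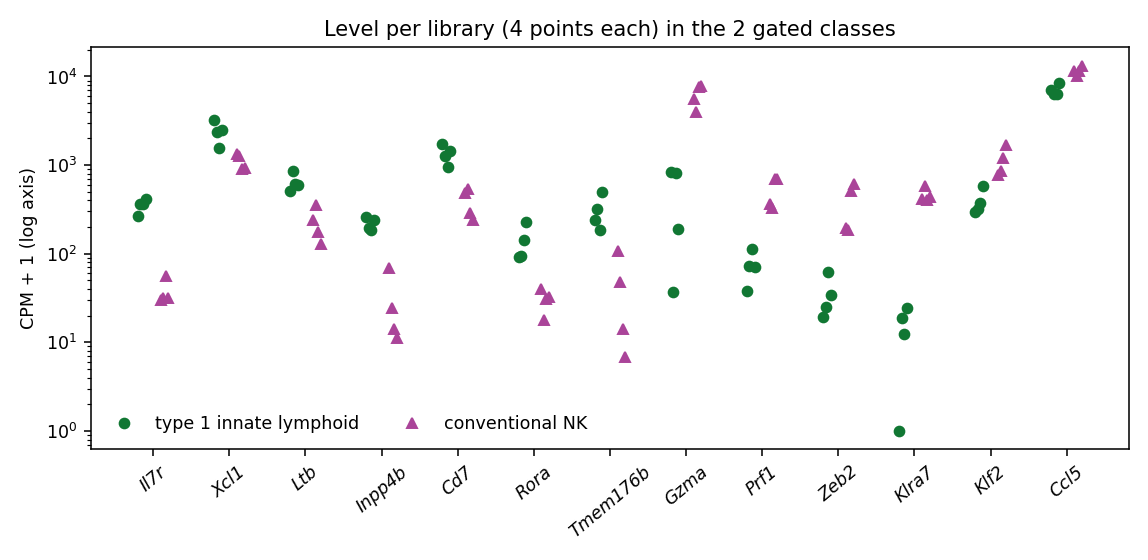
Level (CPM + 1, log axis) of 13 genes in type 1 innate lymphoid cells (circles) and conventional NK cells (triangles), with 1 point per library. The classes do not overlap for any of the 13; Il7r lies at 266 to 414 CPM against 28.9 to 55.7 CPM.

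By gene group, the list of type 1 innate lymphoid genes had 19 of 23 tested members higher and 1 lower, with a median log2 difference of 2.16 against -0.01 over all genes. The lower one was Il18r1, a chain of the interleukin 18 receptor (204 ± 79.1 against 324 ± 139.8 CPM, log2 -0.69, adjusted p = 0.0208). The conventional NK list had 20 of 23 lower and 0 higher, with a median of -2.48. Both lists were drawn up to tell the 2 cell types apart, so these counts describe the gates and are no independent evidence. Among the higher genes were Tnfsf10, encoding TRAIL (138 ± 49.0 against 33.0 ± 28.5 CPM), Cd200r1 (2.67 on the log2 scale) and Cd160 (1.92).

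Effector genes were split. Of 19 cytotoxic granule and death ligand genes, 6 were lower (Gzma, Gzmb, Prf1, Nkg7, Serpinb9, Serpinb6b) and 1 was higher (Tnfsf10). Gzmb was at 156 ± 105 against 496 ± 209 CPM (log2 -1.89, adjusted p = 1.37e-05). Of 12 cytokine and chemokine genes, Tnf, Xcl1 and Ltb were higher, and Ccl3 and Ccl5 were lower. Tnf, tumour necrosis factor, was at 165 and 93.2 CPM in Control 1 and 2 and 259 and 156.8 CPM in KO 1 and 2 in the members and at 26.0 to 54.0 CPM in the NK cells (log2 1.90 ± 0.29 (SE), adjusted p = 1.46e-04). Ifng, interferon gamma, was at 407 ± 97.2 against 526 ± 154 CPM and did not pass (log2 -0.42, adjusted p = 0.0868).

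Receptors for cytokines were also split, with 6 of 26 higher and 4 lower. The interleukin 2 receptor alpha chain Il2ra (58.5 ± 12.1 against 7.14 ± 5.71 CPM) and the feedback inhibitor Cish (log2 3.03) were higher. Il12rb2, Il18r1, Il18rap and Jak1, which serve interleukin 12 and 18 signalling or cytokine signalling in general, were lower; Il18rap was -1.05 on the log2 scale. Of 31 activating and inhibitory receptors, 8 were higher and 11 lower. The checkpoint receptors Lag3 (73.5 ± 11.9 against 8.71 ± 7.63 CPM, log2 3.40, adjusted p = 3.40e-05) and Ctla4 (log2 3.11), the adhesion receptors Cd226 (log2 1.69) and Cd96 (log2 1.07), and the NKG2A gene Klrc1 (log2 1.16) were higher. The receptor adaptor Tyrobp was lower (log2 -0.84).

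Of 29 transcription factors, 6 were higher and 7 lower. Besides Rora, Ikzf2 and Maf, the higher ones were Id2, Tox and Ahr, the aryl hydrocarbon receptor (99.4 ± 14.9 against 22.02 ± 19.2 CPM, log2 2.12, adjusted p = 2.01e-04). Irf8 and Prdm1 (BLIMP1) were among the lower ones (log2 -2.12 and -1.75). Tbx21, encoding T-BET, was at 121 ± 30.1 against 153 ± 19.8 CPM and did not pass (log2 -0.35, adjusted p = 0.317), nor did Gata3 (log2 0.30, adjusted p = 0.457). Of 28 residency and migration genes, 13 were lower, Klf2, Itga4 and Cxcr4 among them, and 6 were higher. Those included Rgs1, which dampens chemokine receptor signals (1751 ± 803 against 713 ± 170.2 CPM), and the chemokine receptor Cxcr3 (119.6 ± 52.3 against 39.8 ± 6.28 CPM).

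Interferon response genes were higher in 6 of 24 and lower in 0, Isg15 (log2 1.67) and Ly6e (log2 0.87) among them. Cell survival genes were higher in 3 of 14 (Bcl2, Bcl2a1b, Bcl2a1d) and lower in 1; Bcl2 was at 526 ± 103 against 264 ± 68.4 CPM. Genes of cycling cells were lower in 4 of 9, for example Top2a (log2 -3.00) and Stmn1 (log2 -1.62). Of 31 genes of immediate early and dissociation stress, 1 was higher and 1 lower, and 0 of 13 mitochondrially encoded genes passed. Over all genes 3.72% were higher and 3.84% lower. The counts for the stress and mitochondrial lists are near those shares and are no result about the members.

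CYR61 is a secreted matrix protein that binds integrins. Among its receptors, the members had more Itgb3 (73.1 ± 12.5 against 7.43 ± 7.52 CPM, log2 2.95 ± 0.46 (SE), adjusted p = 1.68e-04) and Itgav (log2 1.10), the chains of the integrin alpha v beta 3, and less Itgb1. Itgam, another receptor chain, was a gate gene.

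**Figure D3:**
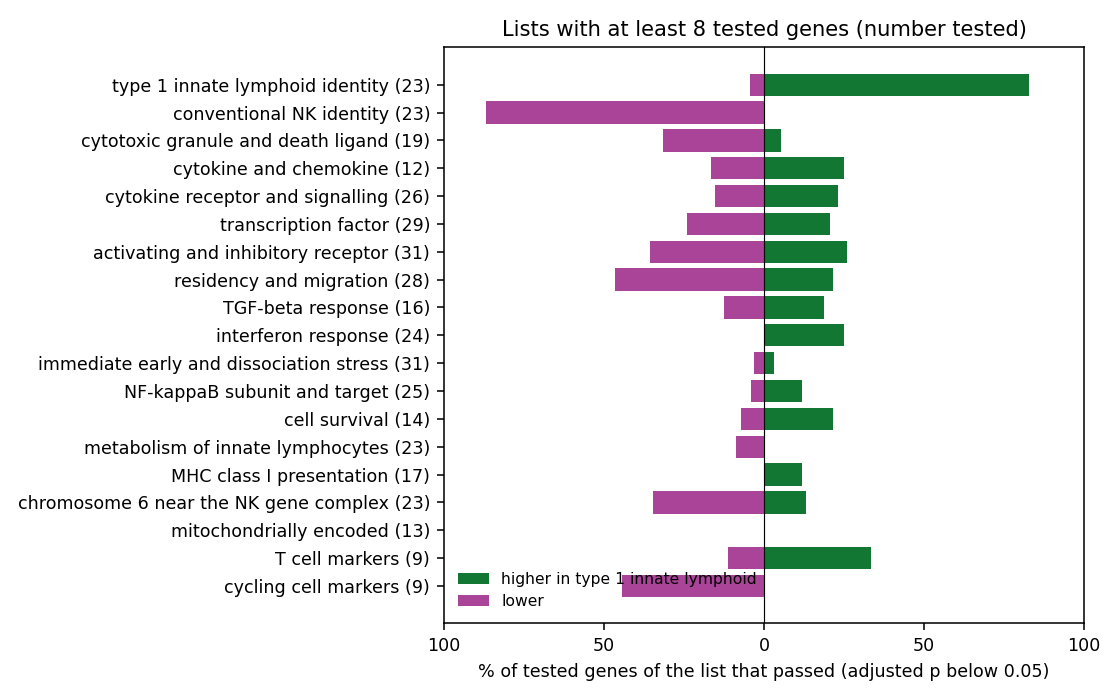
Percent of the tested genes of each list that were higher (right, green) or lower (left, purple) in type 1 innate lymphoid than in conventional NK cells at an adjusted p below 0.05, with the number tested in brackets. Over all 5047 genes, 3.72% were higher and 3.84% lower.

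The comparison the study was built for, KO against Control, changed few genes in the members. Of 3651 genes tested, 11 passed (0.301%), with 1 higher (0.0274%) and 10 lower (0.274%), and 361 had an unadjusted p below 0.05. The higher gene was Klrb1c, which the gate itself used, so that its level is described and its test is not read. The lower genes were 4 of MHC class II presentation, the protease inhibitor gene Cst3, the lysosomal gene Psap, Alox5ap, Ifi27l2a, the ribosomal protein gene Rpl35 and the RNA AY036118. DESeq2 called 5 of them, all lower. With the Ncr1-only gate edgeR called 0 of 3227 genes, and 232 had an unadjusted p below 0.05. That gate also admitted cells with Klra8 or Klra4 UMIs.

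Klrb1c, encoding NK1.1 (ENSMUSG00000030325, chr6:128778485-128789215, minus strand), was at 193 and 259 CPM in Control 1 and 2 and 596 and 664 CPM in KO 1 and 2 in the members, with both KO libraries above both Control libraries. With the gate that did not use it (Ncr1 only), its log2 change was 1.20 and did not pass (adjusted p = 0.653). All 3 receptors of the gate were found together in 4 of 56 and 25 of 98 members in Control 1 and 2 and in 27 of 79 and 46 of 89 in KO 1 and 2. In the NK cells, whose gate used the same receptors, Klrb1c was at 434 and 395 CPM in Control 1 and 2 and 752 and 709.5 CPM in KO 1 and 2.

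Its neighbours in the NK gene complex on chromosome 6 had values in the same direction. Klrb1b, an inhibitory receptor and gate gene, was at 257 and 292 CPM in Control 1 and 2 and 568 and 544 CPM in KO 1 and 2. Klrc1 was at 175 and 268 CPM in Control 1 and 2 and 444 and 611 CPM in KO 1 and 2 (log2 1.05, adjusted p = 0.114), and Klrc2, encoding the activating NKG2C, at 386 and 397 CPM in Control 1 and 2 and 675 and 848 CPM in KO 1 and 2 (log2 0.82, adjusted p = 0.196). For each of these the KO libraries lay above the Control libraries. Of 18 tested genes of that region, 1 was called, Klrb1c itself, whose test is not read. The median log2 change was 0.33 against 0.00 over all genes, of which 0.301% passed. The region's list holds the gate genes Klrb1c and Klrb1b, so no support is drawn from the count or the median.

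MHC class II genes, which present antigen and are abundant in dendritic cells and B cells, were lower in the KO members. H2-Ab1 (ENSMUSG00000073421, chr17:34257689-34269419, plus strand) was at 597 and 493 CPM in Control 1 and 2 and 16.9 and 20.02 CPM in KO 1 and 2 (log2 -4.94 ± 0.38 (SE), adjusted p = 1.97e-12). Cd74, the invariant chain, was at 1093 and 1106 CPM in Control 1 and 2 and 191 and 164 CPM in KO 1 and 2 (log2 -2.79 ± 0.27 (SE), adjusted p = 1.10e-09). H2-Aa and H2-Eb1 changed by log2 -3.43 and -3.23, so 4 of 5 tested members of the list fell. In all 4 genes both KO libraries lay below both Control libraries. Leaving out KO 1 or KO 2 moved H2-Aa to log2 -4.20 and -2.73, and leaving out KO 1 moved H2-Eb1 to -3.84. H2-Ab1 and Cd74 kept their calls in 16 of 17 alternatives and lost them with the Ncr1-only gate (adjusted p = 0.141 and 0.0789).

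In the Control libraries, most of these UMIs sat in few members. The 4 genes had 291 and 772 UMIs over the members of Control 1 and 2 and 62 and 72 in KO 1 and 2. A single member held 235 of those in Control 1 (80.8%), and another held 341 in Control 2 (44.2%). In 1 member of Control 1, 2 of Control 2, 0 of KO 1 and 1 of KO 2 the 4 genes made up over 2% of the cell's UMIs, at 2.35%, 5.17%, 3.11% and 2.29%. Without those 4 members (and NK cells over the same limit), the call count fell to 3 of 3567 genes: H2-Ab1 (log2 -3.09), Cd74 (log2 -1.93) and AY036118 (log2 -2.18). A gate without any cell with a UMI of the dendritic cell genes Flt3, Xcr1, Clec9a, Siglech or Cd209a also called 3 of 3556. Both alternatives were chosen after seeing the data. UMIs of the 4 genes were also abundant in the B gate of every library, at 13236 and 70636 in Control 1 and 2 and 84869 and 97844 in KO 1 and 2. The part of those UMIs in the members' levels was not tested.

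**Figure D4:**
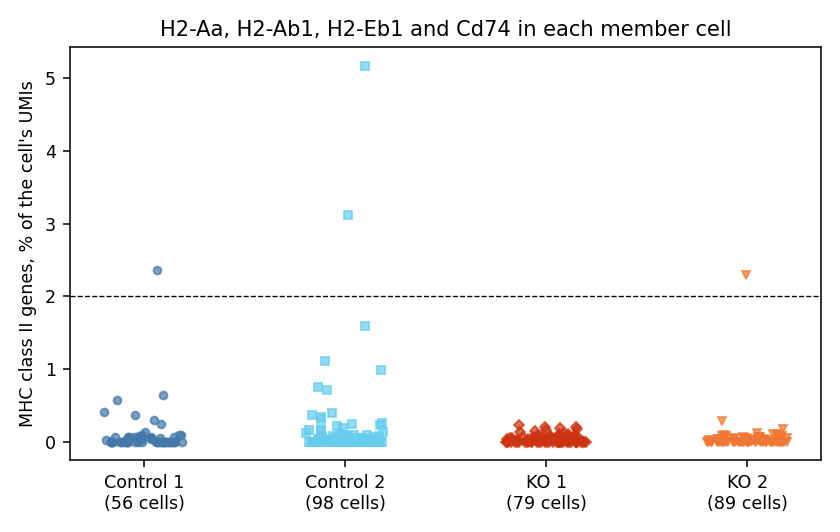
UMIs of H2-Aa, H2-Ab1, H2-Eb1 and Cd74 as percent of all UMIs of each member, 1 point per cell, by library (points spread sideways at random). The dashed line is at 2%; 1, 2, 0 and 1 members lie above it in Control 1, Control 2, KO 1 and KO 2.

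The NK cells showed the same genes lower. There H2-Ab1 was at 704 and 607 CPM in Control 1 and 2 and 24.1 and 20.1 CPM in KO 1 and 2 (log2 -5.04 ± 0.25 (SE), adjusted p = 2.71e-07), and Cd74 was -4.12 on the log2 scale. The limit of 2% MHC class II UMIs kept 52 of 54 and 84 of 87 NK cells in Control 1 and 2. It kept all 229 and 216 in KO 1 and 2. How far single NK cells held these UMIs was not tested. The 2 comparisons use the same 4 libraries, and the difference of the H2-Ab1 change between the classes was log2 0.07, adjusted p = 1. In CD3 cells with an NK receptor, H2-Ab1 was at 12.6 to 134 CPM and also lower in KO (log2 -2.52, adjusted p = 0.00567). In CD3 cells without one it was at 202 and 93.4 CPM in Control 1 and 2 and 62.4 and 38.1 CPM in KO 1 and 2. In Csf1r+ cells it was at 2253 and 1423 CPM against 653 and 710 CPM in the same order. In B cells the groups overlapped, at 2377 and 2871 CPM against 2805.5 and 3085.5 CPM. The fall of H2-Ab1 was thus not particular to the members.

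For the other called genes apart from AY036118 and Rpl35, single Control members also held a large part of the UMIs. Cst3, encoding cystatin C, was at 1516 and 794 CPM in Control 1 and 2 and 101 and 140.2 CPM in KO 1 and 2 (log2 -3.33 ± 0.31 (SE), adjusted p = 4.48e-10), with 147 of 165 UMIs in 1 member of Control 1 and 182 of 264 in 1 member of Control 2. Psap had 48 of 71 and 35 of 88 UMIs in 1 member each of Control 1 and 2 (log2 -1.77, adjusted p = 0.00150). Ifi27l2a, an interferon-induced gene, had 35 of 55 UMIs in 1 member of Control 1 (log2 -3.37, adjusted p = 1.64e-04). Alox5ap, the activator of leukotriene synthesis, had 15, 17, 0 and 2 UMIs in Control 1, Control 2, KO 1 and KO 2. Its Control to KO ratio was 17.3 (95% counting interval 4.41 to 149), and 14 and 16 of the Control UMIs came from 1 member each. Cst3, H2-Aa, H2-Eb1, Psap and Ifi27l2a lost their calls without the members over 2% MHC class II UMIs, and Alox5ap was then too rare to be tested. Over all alternatives Psap lost its call in 7 of 17, among them DESeq2 and the fit without Control 1 (log2 -1.12, adjusted p = 0.0894; -2.38 without Control 2), and Ifi27l2a in 6 of 17. Leaving out Control 1, Control 2 or KO 1 moved Ifi27l2a to log2 -2.02, -4.41 and -4.09. Alox5ap lost its call in 5 of 13, among them the fits without Control 1 (adjusted p = 0.382) and without Control 2 (adjusted p = 0.130).

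AY036118 was spread over most members. It is annotated as a long noncoding RNA on chromosome 17 (ENSMUSG00000105361, chr17:39847113-39848035, minus strand). It lies inside the span of Gm42418, which is on the plus strand, and how far their reads were told apart was not tested. It was at 2802 and 2345 CPM in Control 1 and 2 and 1103 and 230.3 CPM in KO 1 and 2 (log2 -2.13 ± 0.34 (SE), adjusted p = 1.07e-04), with 55 and 93 members in Control 1 and 2 and 58 and 43 members in KO 1 and 2 holding a UMI. It fell in NK cells too (log2 -2.90). Both KO libraries also lay below both Control libraries in B cells, Csf1r+ cells and CD3 cells with or without an NK receptor UMI. In B cells it was at 3055 and 2208 CPM in Control 1 and 2 and 574 and 151 CPM in KO 1 and 2. The fall was thus not particular to the members. The members' call for AY036118 was lost in 4 of 17 alternatives: DESeq2, the Ncr1-only gate, at most 10% mitochondrial UMIs and at least 1000 UMIs. Its log2 change was -3.64 without KO 1 and -1.35 without KO 2. Rpl35 was at 4208 and 2234 CPM in Control 1 and 2 and 1997 and 1302 CPM in KO 1 and 2 (log2 -1.10, adjusted p = 0.0361) and kept its call in 7 of 17 alternatives (adjusted p = 0.639 without Control 1 and 0.575 without KO 2).

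**Figure D5:**
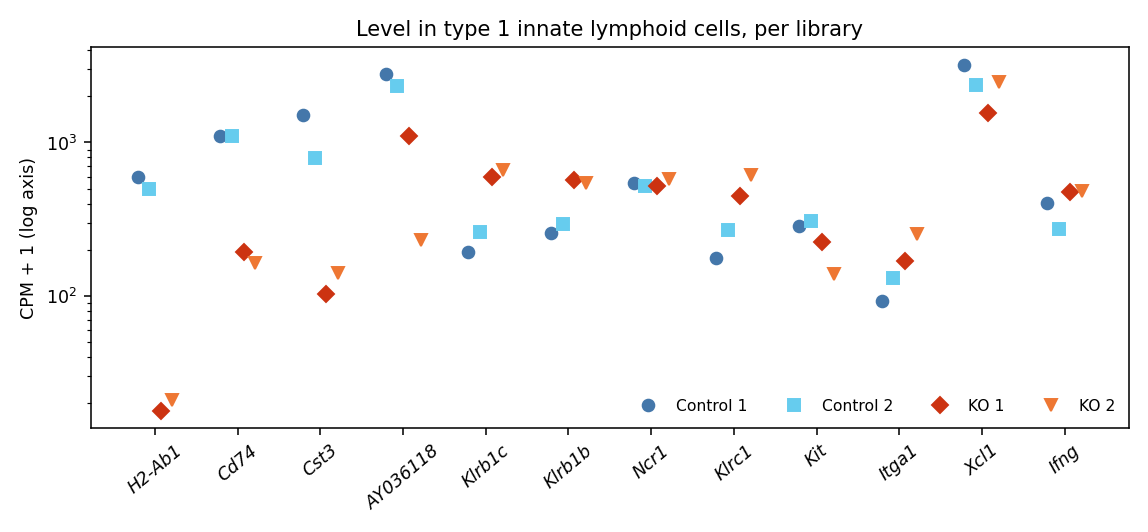
Level (CPM + 1, log axis) of 12 genes in type 1 innate lymphoid cells, 1 point per library. H2-Ab1, Cd74, Cst3 and AY036118 lie lower in both KO libraries; Klrb1c, Klrb1b, Ncr1, Kit and Itga1 are gate genes, and Klrc1, Xcl1 and Ifng did not pass the test.

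Since 0.301% of all genes passed, a list with 0 calls is what most lists of this size would give, and the counts below are no result about the members. Of 25 tested type 1 innate lymphoid genes 0 passed, with a median log2 change of -0.06 against 0.00 over all genes, and the list holds gate genes. The gate genes are given as description. Kit was at 285 and 307 CPM in Control 1 and 2 and 225 and 137 CPM in KO 1 and 2, and Nrgn, encoding neurogranin, at 459 and 268 CPM in Control 1 and 2 and 231 and 187 CPM in KO 1 and 2; for both, the KO libraries lay below the Control libraries. Itga1 was at 91.9 and 129 CPM in Control 1 and 2 and 169 and 254 CPM in KO 1 and 2, with the KO libraries above. Cxcr6 was at 239 and 126 CPM in Control 1 and 2 and 197 and 200.2 CPM in KO 1 and 2 and overlapped. Xcl1, no gate gene, overlapped as well, at log2 -0.60, adjusted p = 0.394.

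Effector genes gave 0 calls among 17 cytotoxic granule genes and 0 among 11 cytokine genes. Ifng was at 404 and 271 CPM in Control 1 and 2 and 473 and 481 CPM in KO 1 and 2 (log2 0.41, adjusted p = 0.661), with the KO libraries above the Control libraries. Tnf was at log2 0.64, adjusted p = 0.533, Ccl4 at log2 -0.60, adjusted p = 0.456 and Gzmb at log2 1.14, adjusted p = 0.314. Of 21 NF-kappaB genes, 22 cytokine receptor and signalling genes, 23 transcription factors, 26 residency genes, 14 TGF-beta response genes and 18 metabolic genes, 0 passed. Of 29 stress genes 0 passed; Hspa1b, a heat shock gene, was at 726 and 664 CPM in Control 1 and 2 and 1727 and 1195 CPM in KO 1 and 2 (log2 0.93, adjusted p = 0.116). In the NK cells Hspa1b did pass (log2 1.35, adjusted p = 0.0472), and the difference between the classes did not (log2 -0.46, adjusted p = 0.921). Of the 21 interferon genes, Ifi27l2a alone passed. The standard errors, 0.24 for the abundant Xcl1 and 0.41 for Gzmb on the log2 scale, set how small a change could be detected at this depth.

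The targeted gene could not be checked in the members. Ccn1, the current symbol of Cyr61 (ENSMUSG00000028195, chr3:145646976-145649981, minus strand), had 0 UMIs in the members of all 4 libraries, which allows up to 27.6, 9.02, 16.9 and 10.0 CPM in Control 1, Control 2, KO 1 and KO 2 at 3 UMIs each. Of its receptor list, 4 genes were tested and 0 passed; Itgb3 was at 91.9 and 66.1 CPM in Control 1 and 2 and 67.5 and 66.7 CPM in KO 1 and 2 (log2 -0.28, adjusted p = 0.897). On chromosome 6, Emp1 had 1, 8, 0 and 0 UMIs in Control 1, Control 2, KO 1 and KO 2, and Hebp1 had 0, 1, 0 and 2 UMIs in Control 1, Control 2, KO 1 and KO 2; neither was abundant enough to be tested.

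Marker genes of other cells were present in the members at low levels. Myeloid markers summed to 441 and 472 CPM in Control 1 and 2 and 242 and 250 CPM in KO 1 and 2. Of these, S100a9, a neutrophil calprotectin subunit, was at 73.5 and 69.1 CPM in Control 1 and 2 and 11.3 and 20.02 CPM in KO 1 and 2 (log2 -2.19, adjusted p = 0.114). Haemoglobin genes summed to 18.4, 12.0 and 5.63 CPM in Control 1, Control 2 and KO 1 and to 1836 CPM in KO 2, where 1 member held 299 of 306 Hbb-bs UMIs. Hepatocyte markers summed to 64.3 and 132 CPM in Control 1 and 2 and to 321 and 90.1 CPM in KO 1 and 2, with Alb at 0. The part of these lists in the results was not tested.

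Whether the knockout change differed between type 1 innate lymphoid and conventional NK cells was tested with an interaction term. Of 5059 genes, 3 passed (0.0593%), Gm42418 and Ckb with a more positive change in the members (0.0395%) and Apoc1 with a more negative one (0.0198%), and 271 had an unadjusted p below 0.05. Ckb, encoding brain-type creatine kinase, was at 82.7 and 174 CPM in Control 1 and 2 and 174 and 210.2 CPM in KO 1 and 2 in the members and at 57.8 and 60.7 CPM in Control 1 and 2 and 5.57 and 2.88 CPM in KO 1 and 2 in the NK cells. It fell in the KO NK cells (log2 -3.97 ± 0.60 (SE), adjusted p = 0.0162) and did not pass in the members (log2 0.29, adjusted p = 0.827), and the difference was log2 4.19 ± 0.63 (SE), adjusted p = 0.0118. Tnfsf10 and Tmem176b were likewise called lower in the KO NK cells (log2 -2.96 and -2.98), and their differences between the classes did not pass (log2 2.68, adjusted p = 0.251 for Tnfsf10 and log2 3.04, adjusted p = 0.251 for Tmem176b). The NK cells' UMIs summed to 538370 in KO 1 and 694820 in KO 2, where Tnfsf10 was at 11.1 and 5.76 CPM. Ckb and Tnfsf10 thus rest on few UMIs in the KO NK cells. In all, 28 of 5180 genes changed in the NK cells (0.541%), 6 higher (0.116%) and 22 lower (0.425%). In CD3 cells with an NK receptor UMI, 20 of 7577 changed (0.264%), 2 higher (0.0264%) and 18 lower (0.238%).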

How the data were processed

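Droplet single-cell RNA (10x Genomics) was measured in 2 Control and 2 Cyr61 KO liver libraries. The deposited values are UMI counts, not normalized, for each gene in each barcode; the submitters' processing notes name Cell Ranger 3.1.0 and the build mm10. The lowest total per barcode was 500 UMIs. Coordinates come from GENCODE M21 (GRCm38), which held 99.6% of the 32285 features. The members and gene lists were chosen with earlier results of these data known.

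Barcodes with at least 250 genes and at most 25% mitochondrial UMIs were kept (24030 of 24719). Doublets were left in; Scrublet (scanpy 1.11.5) marked 0, 0, 1 and 84 cells in Control 1, Control 2, KO 1 and KO 2, under 0.5% in 3 libraries, so the alternative without doublets removed the highest scores there (1, 3, 3 and 0 members). Counts were summed per library and class and tested with edgeR 4.0.16 (TMM, filterByExpr, glmQLFit, glmQLFTest, Benjamini-Hochberg adjusted p below 0.05) in R 4.3.3. KO against Control had no covariate. Members against NK cells had the library as a block and left out the gate genes, and the difference of the knockout changes was an interaction term. The SE was taken from the log2 change and the F statistic. Shares used the same model on cell numbers and an exact permutation test. Fits were tested on simulated data. Folds against 0 use 3 UMIs over the group.

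Named genes were up to 12 higher and 12 lower with the smallest p whose libraries did not overlap (for NK cells, with 1 direction in all 4 libraries), up to 4 per list for 27 lists, the markers, Ccn1, Emp1, Hebp1 and the gate genes; some list members named in counts were added for their known role after values were seen. Predicted genes and receptor variable segments were not named, except where a difference between classes passed. Items withheld from this text are not reported here. Alternatives were DESeq2 1.42.0, other size factors, no count filter, hepatocyte and haemoglobin genes left out, stricter cell filters, other gates, thinning and each library left out. Python 3.11.15 was used.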

Additional observations from a re-analysis of the deposited data

Results flagged for a closer look

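For 3 genes the change from Control to KO differed between type 1 innate lymphoid and conventional NK cells in the test of the difference itself (edgeR interaction term). Apoc1, an apolipoprotein gene of hepatocytes (ENSMUSG00000040564, chr7:19689481-19692660, minus strand), gave a fitted log2 difference of -14.13 (adjusted p = 0.0118). It had 0 and 14 UMIs in the members of Control 1 and 2, all 14 in 1 cell, and 0 in the KO members, at least 5.05-fold lower in KO against a floor of 3 UMIs over the group. In the NK cells it was at 0 and 0 CPM in Control 1 and 2 and 7.43 and 134 CPM in KO 1 and 2. The fitted value is no measure of size here, and the call was lost without Control 2 and in DESeq2.

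Gm42418, a long noncoding RNA whose span holds AY036118, gave a log2 difference of 0.57 (adjusted p = 0.0118). It was at 22581 and 48204 CPM in Control 1 and 2 and 28289 and 14176 CPM in KO 1 and 2 in the members and at 24427 and 46779 CPM in Control 1 and 2 and 17702 and 10919 CPM in KO 1 and 2 in the NK cells, so its level differed about as much between libraries of one group as between groups. Its call was lost in 7 of 16 alternatives.

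Ckb gave a log2 difference of 4.19 (adjusted p = 0.0118). Its levels in the KO NK cells rest on few UMIs. The call was lost in 4 of 16 alternatives: DESeq2, without Control 2, without cells with a T cell receptor UMI, and without cells with a dendritic cell gene UMI. The value stayed between 3.58 and 4.95 in all 16.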

How the results depend on the processing

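The number of genes changed in the members (11) was 5 in DESeq2, 31 with no count filter, 5 with at most 10% mitochondrial UMIs, 5 with at least 1000 UMIs, 0 with the Ncr1-only gate, and 3 under both alternatives added after seeing the data (no dendritic cell gene UMI, no cell over 2% MHC class II UMIs). Leaving out each library gave 15 to 47: 23 without Control 1, 47 without Control 2, 31 without KO 1 and 15 without KO 2, of which 7, 10, 11 and 9 were among the 11. The log2 change of the members' share reversed from 0.14 to -0.073 with at least 1000 UMIs, -0.11 with at least 2 type 1 UMIs and -0.22 without KO 2, and leaving out each library gave -0.22 to 0.45. It was called in none of the 15 alternatives run. The 382 genes that differed from NK cells were 162 in DESeq2 (all among the 382), 238 with the Ncr1-only gate, and 50 of 823 tested when cells with a Trac, Trbc1 or Trbc2 UMI were left out, which kept 16, 18, 24 and 13 members; leaving out each library gave 233 (without KO 2) to 367. The 3 genes with a differing change were 0 in DESeq2 (50 with an unadjusted p below 0.05), 19 with no count filter, and 1 each without hepatocyte and haemoglobin genes, without T cell receptor UMIs and with at least 2 type 1 UMIs; leaving out each library gave 0 (without Control 2) to 9 (without KO 1). Uncalled changes of 3 named genes reversed: Ncr1 to 0.55 without T cell receptor UMIs and 0.0063 with at least 2 type 1 UMIs, Xcl1 to 0.012 without T cell receptor UMIs and Cxcr6 (0.12) to -0.40 without Control 2 (0.48 without Control 1). Of the 404 values for the 24 genes the naming rule chose against NK cells, 401 kept their call and direction. Same-numbered libraries share only a number in the labels, and their deviations from the group means correlated at 0.046 over genes; with the replicate number as a block, 19 genes changed (3 higher, 16 lower, 11 shared) and the share's log2 change was 0.13. Without the library as a block, 213 genes differed from NK cells. The cause of these shifts was not tested. The members' small sums (108853 UMIs in Control 1) limit what can be detected, and 188 members rested on a single type 1 gene.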

Other observations

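Several genes that were higher in the members than in NK cells were at levels in CD3 cells with an NK receptor UMI that overlapped those of the members. Il7r was at 266 to 414 CPM in the members and at 319.8 to 489 CPM in those CD3 cells (968 cells), against 28.9 to 55.7 CPM in the NK cells. Ikzf2 was at 225 to 274 CPM, 214 to 259.5 CPM and 28.9 to 72.0 CPM in the same order, and Ltb at 505 to 866 CPM, 496 to 614 CPM and 128 to 354 CPM. Cd7 was at 951 to 1718 CPM in the members and at 312 to 558 CPM in the CD3 cells. Trac was at 11.3 to 18.4 CPM in the members and at 157.6 to 342 CPM in the CD3 cells. These levels were not tested between the 2 classes.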
